A study of Mus musculus with 14 samples.

Results

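The 9 genes described here encode transcription factors that set the identity of T cells, innate lymphoid cells and B cells: Tbx21, Eomes, Gata3, Foxp3, Bcl6, Runx3, Tcf7, Lef1 and Zbtb16. They were chosen by name, and all 9 were found among the 48794 genes of the deposited tables. The RNA came from livers of wild-type mice that received no treatment, in 14 libraries. In 12 of them it came from cells with the leukocyte surface protein CD45 that had been sorted by flow cytometry out of needle biopsies, with 3 libraries each at 2500, 5000, 10000 and 20000 cells. The other 2 libraries came from bulk liver tissue. The labels give no strain, age or animal for any library, so the p-values speak to the spread of these samples alone, and that spread may be technical.

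T cells, natural killer (NK) cells and other innate lymphoid cells arise from shared precursors, and each lineage is fixed by a small set of DNA-binding factors. T-bet, the product of Tbx21, and its relative Eomesodermin drive interferon-producing and cytotoxic programmes, and Runx3 supports CD8 T cells and cytotoxic genes while silencing Cd4. TCF1 and LEF1, the products of Tcf7 and Lef1, are high-mobility-group factors that are needed for early T cell development and kept in naive and memory T cells. Gata3 directs T cell development and type 2 responses, Foxp3 defines regulatory T cells, Bcl6 represses genes in germinal centre B cells and follicular helper T cells, and PLZF, the product of Zbtb16, programmes natural killer T cells and innate lymphoid precursors. The liver is rich in NK cells, type 1 innate lymphoid cells (ILC1) and natural killer T cells, and Bcl6 is also known from hepatocytes.

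The promoters of 8 of the 9 genes, all but Zbtb16, were in a RefSeq table on GRCm38.p6, with 15 start sites between them. The 250 bases upstream of each start were searched on both strands for 5 short motifs: TGTGGT for RUNX factors, AGATAA for the family of Gata3, GGAAGT for ETS factors, CTTTGA for TCF and LEF factors and GGTGTG for T-box factors. These stand in 14.0%, 9.99%, 19.7%, 13.8% and 16.3% of the 32851 such windows of all genes. The windows printed here were chosen after the matches were seen. They show the 2 starts of Runx3, which differ most in their number of CG pairs, and the start of Tbx21, nearly silent in bulk liver. The last is the first of 2 starts of Bcl6, the member with the highest bulk level. Capitals mark motif matches on either strand.
Runx3 first start, chr4:135120395-135120644, plus strand: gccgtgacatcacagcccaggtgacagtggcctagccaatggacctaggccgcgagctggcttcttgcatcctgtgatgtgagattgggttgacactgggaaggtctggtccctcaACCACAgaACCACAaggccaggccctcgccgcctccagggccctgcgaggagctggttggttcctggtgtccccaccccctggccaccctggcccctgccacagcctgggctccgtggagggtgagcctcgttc
Runx3 second start, chr4:135152295-135152544, plus strand: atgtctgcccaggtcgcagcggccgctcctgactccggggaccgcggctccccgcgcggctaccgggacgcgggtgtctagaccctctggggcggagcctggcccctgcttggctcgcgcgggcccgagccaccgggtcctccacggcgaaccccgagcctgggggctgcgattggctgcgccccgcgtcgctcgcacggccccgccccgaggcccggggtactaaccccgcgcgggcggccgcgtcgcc
Tbx21, chr11:97115332-97115581, minus strand: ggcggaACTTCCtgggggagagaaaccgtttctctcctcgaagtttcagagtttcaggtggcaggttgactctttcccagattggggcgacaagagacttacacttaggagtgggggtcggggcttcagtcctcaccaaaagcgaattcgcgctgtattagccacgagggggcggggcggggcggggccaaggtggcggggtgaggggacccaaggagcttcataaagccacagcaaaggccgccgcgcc
Bcl6 first start, chr16:23988853-23989102, minus strand: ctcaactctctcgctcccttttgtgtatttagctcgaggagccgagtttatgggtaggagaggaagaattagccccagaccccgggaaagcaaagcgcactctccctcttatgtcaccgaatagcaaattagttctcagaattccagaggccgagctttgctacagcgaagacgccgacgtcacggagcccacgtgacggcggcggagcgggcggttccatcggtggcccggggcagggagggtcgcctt
The first Runx3 window held 2 RUNX matches and 8 CG pairs, and the second held no match to any of the 5 motifs and 38 CG pairs. The Tbx21 window held 1 ETS match and 16 CG pairs, and the first Bcl6 window held none of the motifs and 21 CG pairs. The second Bcl6 window, not printed here, held 1 match to the motif of TCF and LEF factors and 13 CG pairs. The median window of all genes had 6 CG pairs. No match says only that these letters are not in this window.

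The bulk libraries had 7605290 and 8034138 counts in all, and the sorted ones 6723357 to 14496314. Levels are counts scaled to library size (CPM) with TMM factors (trimmed mean of M values), and levels compared between genes are TPM, a transcript abundance per length. The summed CPM of 10 T cell markers was 1587 to 1844 in sorted libraries and 12.1 to 13.8 in bulk liver, and 8 NK and ILC1 markers summed to 1578 to 1815 and 7.77 to 12.3. The 8 hepatocyte markers summed to 86.3 to 144 CPM in sorted libraries and about 107705 CPM in bulk liver, and the 6 B cell markers to 5977 to 7177 and 31.9 to 36.7. In bulk tissue, fewer cells of a type and less RNA per cell cannot be told apart. The TMM factors were 0.486 and 0.492 in the bulk libraries and 1.12 to 1.15 in the sorted ones, so a bulk level after TMM is over that after library totals.

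Sorted cells were first set against bulk liver, the control of the series. Of the 9 factors 7 were higher in sorted cells, Bcl6 was lower, and Zbtb16 did not pass the test (edgeR quasi-likelihood F test, Benjamini-Hochberg adjusted p under 0.05). Of all 16294 genes tested, 80.3% passed, 41.8% higher and 38.5% lower. The median log2 difference was 5.95 over the 9 factors, also with those that have no bulk count at their lower bound, and 0.17 over all genes. When library totals replaced TMM, the median of all genes rose to 1.37, and 10738 genes were higher and 3654 lower against 6806 and 6273 with TMM. Under library totals Bcl6 no longer passed and lay on the higher side, and Zbtb16 passed as higher.

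Tcf7 (ENSMUSG00000000782, chromosome 11, 52252371 to 52283014, minus strand, GRCm38) was the most abundant of the 9. Its 12 sorted libraries ran from 266 to 361 CPM with a median of 296, and the bulk libraries had 7.23 and 9.23 CPM from 27 and 36 counts. Every sorted library was above both bulk values, which holds for 23.5% of the 29250 genes with a count. The log2 difference was 5.19 (SE 0.13, adjusted p = 2.93e-18, edgeR), and bulk liver held 2.71% of the sorted mean of 303 ± 27.4 CPM (SD, n = 12).

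Lef1 (ENSMUSG00000027985, chromosome 3, 131110471 to 131224356, plus strand), like Tcf7, encodes a high-mobility-group factor. It was between 162 and 198 CPM in sorted libraries with a median of 175. Bulk liver had 2 counts in replicate 1 and none in replicate 2. The sorted to bulk ratio of 673 has a 95% counting interval of 186 to 5558, which, like the other intervals and bounds here, covers counting error only. The fitted log2 difference was 9.33, and 8.39 without bulk replicate 2. Without bulk replicate 1, which holds both counts, it was 13.8, a value that is no bound since no bulk count is left. The antisense gene Gm43352 shares 1208 exon bases, 13.7% of those of Lef1, so part of the counts is uncertain.

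Tbx21 (ENSMUSG00000001444, chromosome 11, 97098071 to 97115331, minus strand) was between 126 and 156 CPM in sorted libraries with a median of 133.3, and had 1 and 2 counts in bulk liver. The groups did not overlap, and the sorted to bulk ratio was 345 (95% counting interval 118 to 1675). Its fitted log2 difference of 8.39 became 8.98 without bulk replicate 2. Eomes (ENSMUSG00000032446, chromosome 9, 118478212 to 118486132, plus strand) ranged from 36.1 to 56.5 CPM with a median of 48.3 in sorted libraries. It had no count in bulk liver, so it was at least 120-fold higher in sorted cells with the bulk level taken as 3 counts in both libraries together. Runx3 (ENSMUSG00000070691, chromosome 4, 135120652 to 135177990, plus strand) ranged from 60.3 to 71.9 CPM with a median of 64.6. It too had no count in bulk liver, was at least 166-fold higher in sorted cells, and could have had up to 0.604% of the sorted level in bulk at that depth. These 3 factors of cytotoxic lymphocytes had 0 to 2 counts per library in whole tissue and at least 288 after the sort.

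Gata3 (ENSMUSG00000015619, chromosome 2, 9857078 to 9890034, minus strand) had 37.2 to 49.8 CPM in sorted libraries with a median of 38.7. Bulk liver had 0.803 and 0.513 CPM from 3 and 2 counts, below every sorted library. Sorted cells exceeded bulk liver by 5.95 on the log2 scale (SE 0.30, adjusted p = 2.91e-13, edgeR), and bulk liver held 1.58% of the sorted mean of 41.6 ± 4.87 CPM (SD, n = 12). The markers of T cells stood at 0.756% in bulk liver on the same scale and those of NK cells and ILC1 at 0.594%, and Lef1 stood at 0.152% and Tbx21 at 0.287%. Tbx21 rests on 3 bulk counts and Gata3 on 5, so their places beside these sums were not resolved. Tcf7, at 2.71% on 63 bulk counts, stood above both sums, and the cause was not tested.

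Foxp3 (ENSMUSG00000039521, chromosome X, 7573644 to 7595245, plus strand) differed far less. Sorted libraries ran from 9.51 to 15.2 CPM with a median of 13.5, and bulk liver had 7.77 and 8.71 CPM from 29 and 34 counts. The groups still did not overlap. The difference was 0.67 on the log2 scale (SE 0.21, 95% interval 0.22 to 1.12, adjusted p = 0.00760, edgeR), and it did not pass without bulk replicate 1 (0.65, adjusted p = 0.0591).
The sorted to bulk ratio of Foxp3 was 1.59 in CPM and 7.88 in TPM. It was larger in TPM for every other factor with a bulk count, as for Tcf7 (36.8 and 123) and Gata3 (63.1 and 309). Bulk liver held 62.8% of the sorted mean of Foxp3 with TMM, 27.3% with library totals and 12.7% in TPM. The exons of Foxp3 share bases with 4 other genes, among them Flicr on the same strand with 853 bases (18.6% of the Foxp3 exons) and Ccdc22 on the other strand with 590 bases (12.9%). The SMART-seq v4 method does not mark strand, so reads of Foxp3 and of these genes cannot be told apart where they overlap. The part of these overlaps in the ratios was not tested.

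Bcl6 (ENSMUSG00000022508, chromosome 16, 23965052 to 23988852, minus strand) was the member with the most bulk RNA. Bulk liver had 88.9 and 86.4 CPM from 332 and 337 counts, and sorted libraries ran from 32.5 to 81.6 CPM with a median of 44.7. All 12 sorted libraries lay below both bulk libraries, a pattern that 25.6% of the genes with a count share. Its log2 difference from bulk liver was -0.89 (SE 0.19, adjusted p = 0.000596, edgeR). The direction turned with the scaling: it was 0.32 with library totals (adjusted p = 0.143, edgeR) and 0.77 on log2(TPM + 1) (adjusted p = 0.00323, limma), and in TPM each of the 12 sorted libraries exceeded both bulk values.

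Zbtb16 (ENSMUSG00000066687, chromosome 9, 48654297 to 48836222, minus strand) was the scarcest. Sorted libraries ran from 4.88 to 9.49 CPM with a median of 7.04, and bulk liver had 10.4 and 7.95 CPM from 39 and 31 counts. Of the sorted libraries 7 lay below both bulk libraries and none lay above both. On the log2 scale the difference was -0.38 (SE 0.21, 95% interval -0.83 to 0.07, adjusted p = 0.109, edgeR). It passed as higher in sorted cells with library totals (0.82, adjusted p = 0.00179, edgeR) and on log2(TPM + 1) (0.74, adjusted p = 0.00100, limma), and as lower with relative log expression factors (-0.50, adjusted p = 0.0410, edgeR). Bcl6 and Zbtb16 are thus the 2 members whose side of bulk liver is set by the scaling. The summed Kupffer cell markers had a like share, at 193% of the sorted mean in bulk liver with TMM and 59.7% in TPM, beside 180% and 54.3% for Bcl6 and 129% and 38.1% for Zbtb16. The part of any cell type in the levels of Bcl6 and Zbtb16 was not tested.

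**Figure D1:**
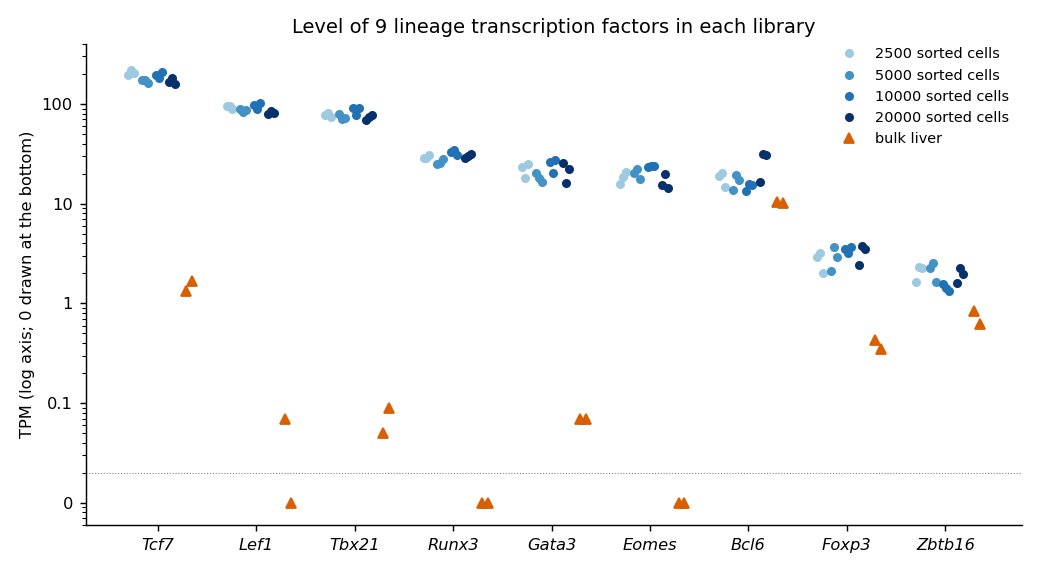
TPM (vertical axis, log scale, with 0 drawn at the bottom) of the 9 transcription factors in each library, with circles for sorted cells coloured by cell number and triangles for bulk liver. The sorted circles of every gene lie above the bulk triangles in TPM, with the narrowest gaps for Bcl6, Foxp3 and Zbtb16; the place of 0 is arbitrary, so the gap of Eomes and Runx3 has no size here.

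**Figure D2:**
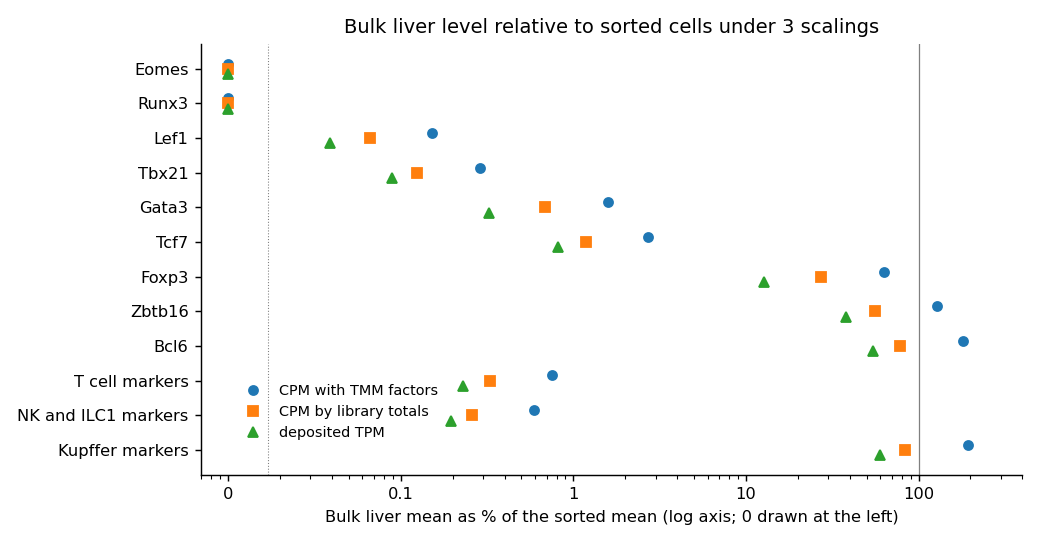
Mean level in bulk liver as a percent of the mean of the 12 sorted libraries (horizontal axis, log scale, with 0 drawn at the left) for each factor and 3 marker sums, under TMM-scaled CPM, CPM by library totals and deposited TPM; the vertical line marks equal means. Bcl6 and Zbtb16 cross that line between scalings, at 180% and 129% with TMM and 54.3% and 38.1% in TPM, while the other factors stay below it.

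The difference from bulk liver was also taken at each cell number, in contrasts that share the bulk libraries. At 2500, 5000, 10000 and 20000 cells, 77.9%, 78.0%, 78.3% and 77.8% of all tested genes passed. In the same order 40.5%, 40.6%, 40.7% and 41.0% were higher in sorted cells and 37.4%, 37.4%, 37.6% and 36.8% lower. The same 7 factors, Tcf7, Lef1, Tbx21, Runx3, Eomes, Gata3 and Foxp3, were higher at every cell number. Bcl6 was lower at 2500 (log2 difference -0.94), 5000 (-0.99) and 10000 cells (-1.26), and was at -0.35 without passing at 20000 cells (adjusted p = 0.178, edgeR). Zbtb16 passed as lower at 10000 cells alone (-0.84, adjusted p = 0.00525, edgeR).

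In sorted cells, the order of the levels per length was Tcf7, Lef1, Tbx21, Runx3, Gata3, Eomes, Bcl6, Foxp3 and Zbtb16. Tcf7 had 185 ± 19.2 TPM (SD, n = 12), above 94.5% of the 14696 genes with at least 1 TPM. Lef1 had 89.6 ± 7.06 TPM and Tbx21 78.1 ± 7.30 TPM. Lef1 was above Tbx21 in all 12 libraries, although their ranges over libraries overlap.
Runx3 followed at 29.7 ± 2.83 TPM, and Gata3 at 21.6 ± 3.88, Eomes at 19.7 ± 3.39 and Bcl6 at 19.0 ± 6.21 TPM could not be ordered beyond their spread. Gata3 was above Eomes in 7 of 12 libraries, and Eomes above Bcl6 in 7 of 12. Foxp3, at 3.08 ± 0.611 TPM, and Zbtb16, at 1.90 ± 0.412 TPM, closed the order, and Zbtb16 was above only 10.1% of those genes. In bulk liver the order began with Bcl6 at 10.3 TPM, then Tcf7 at 1.50, Zbtb16 at 0.725 and Foxp3 at 0.390 TPM. With CPM per kilobase of annotated exon in place of TPM, 5 of the 9 genes kept their rank: Tbx21 then stood above Lef1 and Eomes above Gata3.

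Ratios between related factors varied to different degrees over the libraries. Tbx21 was 4.05 ± 0.658 times Eomes in TPM (SD, n = 12; range 3.18 to 5.37), with means of 4.31, 3.75, 3.64 and 4.51 at 2500, 5000, 10000 and 20000 cells. Tcf7 was 2.06 ± 0.125 times Lef1 (1.87 to 2.31), the steadiest of the 3 ratios, and Runx3 was 0.382 ± 0.0391 of Tbx21 (0.312 to 0.446), with means of 0.382, 0.351, 0.383 and 0.411 in the same order of cell numbers. The mean Tcf7 to Lef1 ratio was 2.20 at 2500 cells and 1.98, 2.03 and 2.05 at 5000, 10000 and 20000 cells, and the ranges of 2500 and 20000 cells overlap.

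The series varied the number of sorted cells, which asks how few cells still give the same profile. No factor passed for any difference between the 4 cell numbers, for a trend with the log2 cell number, or for 2500, 5000 or 10000 against 20000 cells (edgeR quasi-likelihood F test over 14795 genes). Of all genes, 0.297% passed for any difference, 0.0811% for the slope, and 0.419%, 0.0879% and 0.304% in the 3 contrasts, which share the 20000-cell libraries. At an unadjusted p under 0.05 there were 4 factors for any difference (Bcl6, Tcf7, Zbtb16 and Eomes), 1 for the slope (Tcf7), and 3, 1 and 3 in the contrasts. Of all 14795 genes, 1597, 1580, 1968, 1203 and 1504 had such a p, in the same order. DESeq2 called 1 factor, Bcl6, for any difference and for 10000 against 20000 cells and none in the other 3 tests, and limma on TPM called none. CPM in the next paragraphs are scaled over the sorted libraries alone and so lie above those given beside bulk liver.

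Bcl6 had the largest shift. Its libraries had 49.1, 89.9 and 91.5 CPM at 20000 cells, against 55.5, 58.5 and 41.0 at 2500, 39.8, 56.9 and 51.3 at 5000, and 36.7, 43.1 and 43.8 CPM at 10000 cells. At 20000 cells 2 libraries were high and replicate 1 was not, so its range overlaps those of 2500 and 5000 cells but lies above that of 10000 cells.
The log2 difference of 10000 from 20000 cells was -0.90 (SE 0.21, 95% interval -1.37 to -0.44, adjusted p = 0.121, edgeR). That of 2500 cells was -0.58 (SE 0.21, adjusted p = 0.259) and that of 5000 cells -0.64 (SE 0.21, adjusted p = 0.445, edgeR). For any difference the adjusted p was 0.229 in edgeR, 0.00296 in DESeq2, 1.44e-13 in edgeR without a filter on low counts, and 0.00654 in edgeR without replicate 1 of 20000 cells. Bcl6 did not pass in edgeR with library totals (adjusted p = 0.236), relative log expression factors (0.214) or a replicate block (0.123). Nor did it in edgeR with all 14 libraries (0.161) or the hepatocyte marker share as a covariate (0.653). In limma on TPM the adjusted p was 0.354 and 0.352 at pseudocounts of 1 and 0.1. Over the 12 alternatives that leave out 1 library the adjusted p in edgeR ran from 0.00654 to 0.661. Without replicate 1 of 20000 cells the 3 contrasts passed as well, at -0.81, -0.87 and -1.14 (adjusted p = 0.0287, 0.0207 and 0.00154, edgeR).

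Tcf7 had 355, 411 and 374 CPM at 2500 cells and 328, 336 and 298 CPM at 20000 cells. The groups do not overlap. Tcf7 differed by 0.25 on the log2 scale (SE 0.07, 95% interval 0.10 to 0.39, adjusted p = 0.118, edgeR), with 328, 322 and 315 CPM at 5000 cells and 338, 321 and 374 CPM at 10000 cells between or beside them. Gata3, with 54.03, 44.0 and 55.8 CPM at 2500 cells and 42.2, 42.0 and 42.0 CPM at 20000 cells, also did not overlap. Its difference was 0.28 (SE 0.12, adjusted p = 0.288, edgeR). In TPM Gata3 did overlap, with 23.4, 18.3 and 24.8 TPM at 2500 cells and 25.5, 16.04 and 22.3 TPM at 20000 cells.

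Eomes had 59.5, 59.7 and 63.4 CPM at 10000 cells and 43.1, 54.8 and 40.4 CPM at 20000 cells, with no overlap. This is a log2 difference of 0.40 (SE 0.12, 95% interval 0.14 to 0.65, adjusted p = 0.221, edgeR), and it passed when genes with low counts were kept (0.41, adjusted p = 0.0284). Zbtb16 had 6.28, 5.53 and 5.51 CPM at 10000 cells and 7.33, 9.00 and 8.32 CPM at 20000 cells, again with no overlap. They differed by -0.51 on the log2 scale (SE 0.21, adjusted p = 0.387, edgeR). Its counts were 49 to 154 per sorted library.
Counted over all 9, the libraries did not overlap those of 20000 cells for 3 factors at 2500 cells (Tcf7, Gata3 and Lef1, all higher), 1 at 5000 cells (Gata3, higher) and 4 at 10000 cells (Eomes and Gata3 higher, Bcl6 and Zbtb16 lower). Of the 14250 genes with at least 1 CPM, 17.2%, 16.6% and 19.8% did not overlap in these pairs of groups. This count was added after the values were seen.

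The group means of Tbx21, Runx3, Lef1 and Foxp3 varied little with the cell number. The highest group mean was 1.10 times the lowest for Tbx21, 1.08 times for Runx3, 1.08 times for Lef1 and 1.08 times for Foxp3. The 95% interval of the log2 difference of 2500 from 20000 cells was -0.13 to 0.21 for Tbx21, -0.14 to 0.22 for Runx3, -0.03 to 0.26 for Lef1 and -0.48 to 0.28 for Foxp3. Differences of any size within these intervals are compatible with the data, and the interval of Foxp3 is the widest of them. No T, NK or B cell marker passed between 2500 and 20000 cells, and 2 of 6 Kupffer cell markers did. The Kupffer cell marker sum was 356 to 428 CPM at 2500 cells and 259 to 284 CPM at 20000 cells, and its part in the levels of the 9 factors was not tested.

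**Figure D3:**
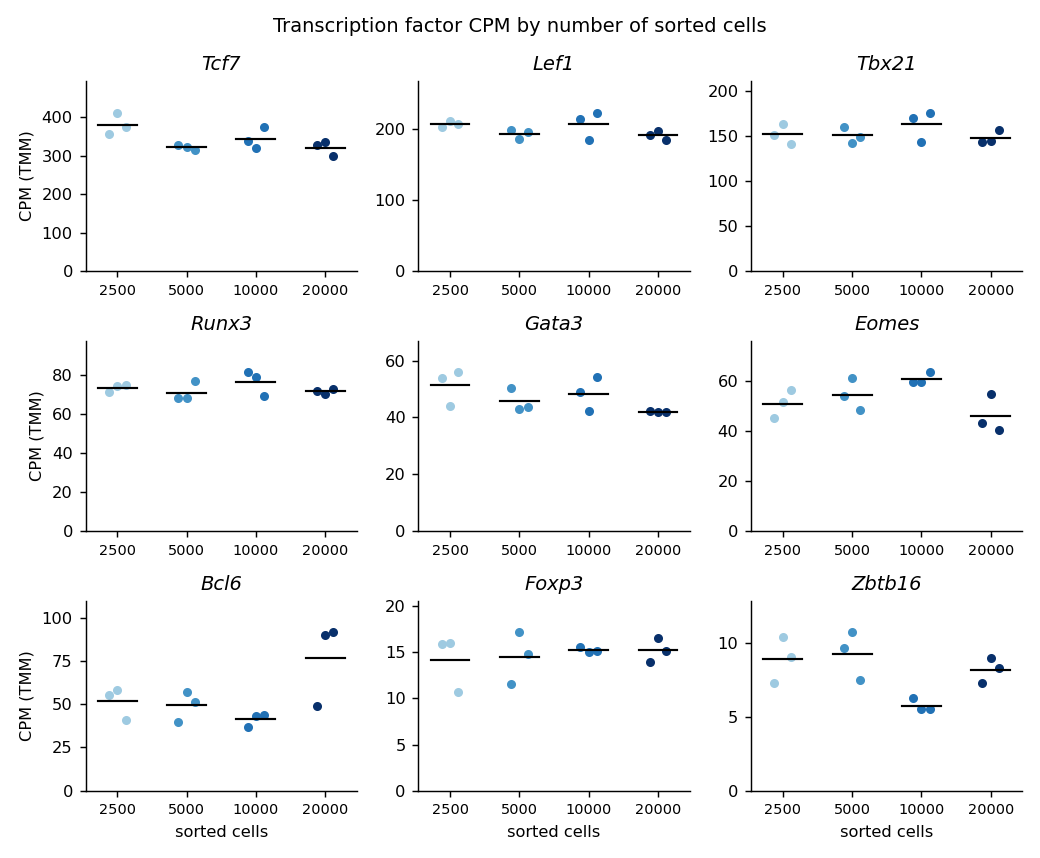
CPM scaled by TMM over the 12 sorted libraries (vertical axes, linear from 0) against the number of sorted cells for each factor, with 1 point per library and a bar at the mean of 3. The 20000-cell libraries of Bcl6 split into 49.1 CPM and a pair at 89.9 and 91.5 CPM, and the 10000-cell libraries of Zbtb16 sit at 5.51 to 6.28 CPM, below the 7.33 to 9.00 CPM at 20000 cells.

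**Figure D4:**
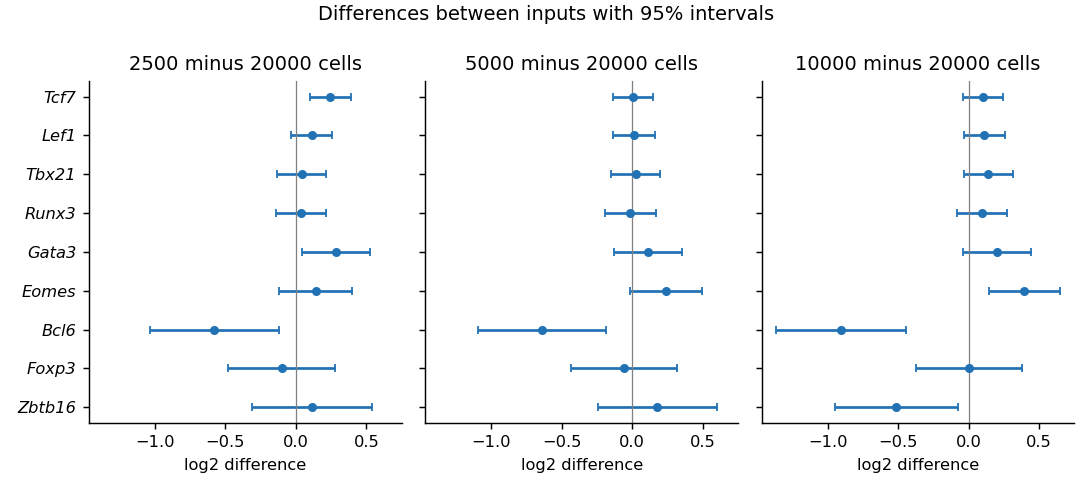
Log2 difference of 2500, 5000 and 10000 cells from 20000 cells for each factor, with bars for the 95% interval of the edgeR fit, not adjusted for the number of genes. Bcl6 has the largest shift in every panel, from -0.58 to -0.90, and the intervals of Tbx21, Runx3, Lef1 and Foxp3 include 0 throughout.

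The spread between libraries of 1 group fell in order with more cells in the median over the 9 factors but for no single factor. That median coefficient of variation was 11.0% at 2500 cells, 8.72% at 5000, 8.37% at 10000 and 6.19% at 20000 cells. Over 11076 genes of at least 5 CPM it was 10.9%, 8.30%, 7.68% and 7.66%. For 3 factors the coefficient was higher at 20000 than at 2500 cells: Bcl6 had 31.3% against 18.1%, Eomes 16.6% against 11.0%, and Lef1 3.39% against 2.33%. Counting alone gives 4.02% for Bcl6 at 20000 cells. Gata3 at 20000 cells had 0.264% against 5.50% from counting alone, while its TPM in the same libraries spread from 16.04 to 25.5.

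Genes known to act under or beside each factor were then counted in sorted cells against bulk liver. The lists were written by hand, share genes with each other and with the markers of T and NK cells, and are read beside the 41.8% of all genes that were higher and the 38.5% lower. All 12 genes listed with T-bet and Eomes were higher, with a median log2 difference of 7.88 (7.40 with genes at 0 in bulk at their lower bound) beside 0.17 over all genes. The most abundant were Il2rb, a receptor chain for interleukins 2 and 15, at 495 ± 62.2 CPM in sorted cells and 1.69 in bulk liver, Nkg7, a granule protein, at 382 ± 29.6 and 1.32 CPM, and the protease Gzma at 371 ± 37.2 and 1.43 CPM. Of the 10 genes listed with Runx3, 9 were higher (median 6.47), led by the myeloid receptor Csf1r at 685 ± 49.3 against 149 CPM and the integrin Itgal at 598 ± 49.2 against 16.5 CPM. Zbtb7b, which opposes Runx3 in the choice of the CD4 lineage, was lower with TMM (25.3 ± 4.60 against 52.2 CPM) and was not lower with library totals.

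Of the 10 genes listed with Tcf7 and Lef1, 8 were higher (median 6.32), among them the factor Klf2 at 1025 ± 49.8 CPM and the chemokine receptor Ccr7 at 448 ± 26.5 CPM. Nkd1, a Wnt pathway inhibitor, was lower at 1.14 ± 0.493 against 12.7 CPM, and Axin2, another Wnt target, did not pass. Between 2500 and 20000 cells S1pr1 of this list, a receptor for exit from lymph nodes, was higher (log2 difference 0.22, adjusted p = 0.0495, edgeR). Among the other lymphocyte factors described next, Ikzf1 was lower at 5000 than at 20000 cells (adjusted p = 0.0406, edgeR).

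For Gata3, 7 of 10 listed genes had enough counts to test. Of these 6 were higher, with a median of 5.50 that drops to 2.38 with genes at 0 in bulk at their lower bound, and Il17rb was lower (3.87 ± 1.28 against 26.4 CPM). The interleukin 4 receptor Il4ra, at 287 ± 13.8 against 63.7 CPM, and Il9r, at 22.8 ± 2.86 CPM with no bulk count, were the most abundant. Il5 and Il13, the type 2 cytokines, had no count in any library. For Foxp3, 9 of 10 genes were tested and 7 were higher (median 4.17, or 3.82 at the bound), with Tnfrsf18, a costimulatory receptor, at 45.8 ± 3.87 against 0.792 CPM. Nrp1, also a receptor of endothelium, was lower at 59.5 ± 5.40 against 170.4 CPM, though not in TPM, and the latency protein Lrrc32 was lower at 3.28 ± 1.33 against 40.1 CPM.

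For Bcl6, 7 of 10 genes were tested and 6 were higher (median 7.39, or 3.77 at the bound), led by the inhibitory receptor Btla at 334 ± 15.5 against 1.96 CPM and Cxcr5, the receptor for entry into follicles, at 179 ± 14.1 against 1.05 CPM. S1pr2, of germinal centre B cells, did not pass (21.4 ± 2.33 against 19.0 CPM). Il21 and Mef2b, genes of germinal centres and their helper T cells, had 7 and 0 counts over all sorted libraries. For PLZF, 9 of 10 genes were tested and 8 were higher (median 7.74, or 7.69 at the bound), led by Cxcr6, a receptor of liver-resident lymphocytes, at 266 ± 23.9 against 0.909 CPM and the NK receptor Klrb1c at 152 ± 10.0 against 0.128 CPM. Cd1d1, which presents lipids to natural killer T cells, was lower at 42.6 ± 4.74 against 402 CPM, and Trav11, a segment of their invariant receptor, had no count. So while Bcl6 and Zbtb16 themselves changed side with the scaling, most listed genes of both were higher under TMM, library totals and TPM alike. Of all genes, 41.8% were higher with TMM, 65.9% with library totals and 67.2% on log2(TPM + 1), so most genes were higher under the latter scalings.

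Among 37 other lymphocyte transcription factors 27 were higher and 7 lower with TMM (median 4.80), and 31 higher and 2 lower with library totals. The most abundant were Ets1 at 1295 ± 78.0 against 50.6 CPM, Klf2 as above, and Id2, an inhibitor of E proteins that innate lymphoid cells need, at 495 ± 38.7 against 536 CPM, which did not pass. Rora, a nuclear receptor that innate lymphoid cells need and hepatocytes also express, stayed lower with library totals and in TPM.

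The genes with the most similar profile were found for each factor as those with the smallest root mean square difference of centred log2(CPM + 0.5) among protein-coding genes of at least 5 CPM. Over all 14 libraries the nearest to Tbx21 were Tnfrsf13c and H2-Ob, to Eomes Srpk3 and Cd244a, to Runx3 Ikzf3, and to Gata3 Icosl and Ncf4. Tcf7 had Trib2 and Nedd9, Lef1 had Itgb7 and Skap1, Foxp3 had Ercc6 and Crtc2, Bcl6 had Mmp24 and Capns1, and Zbtb16 had Ints3 and Pi4kb. The differences of the nearest genes were 0.0890 to 0.169 over the 9 factors. The gap between sorted cells and bulk liver is part of this measure.
Over the 12 sorted libraries alone the nearest were Mak16 and Rbks for Tbx21, Pkmyt1 and Rad54l for Eomes, E2f4 and Wbp11 for Runx3, Orc5 and Rras2 for Gata3, Saraf and Lrmp for Tcf7, and Kctd10 and Jak1 for Lef1. Foxp3 had Lyst and Gnl3l, Bcl6 Csrnp1 and Ykt6, and Zbtb16 Ints3 and Zfp955a. Ints3 was the only gene named for the same factor by both measures. For Bcl6 the difference from Csrnp1 was 0.118 where Bcl6 itself varied by 0.405 around its mean, while Runx3 varied by only 0.0783, with its nearest genes at 0.0456 and 0.0515.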

How the data were processed

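RNA from 12 sorted and 2 bulk liver libraries had been made into cDNA with the SMART-seq v4 method and tagmented, per the labels' protocols. The authors deposited raw counts per gene (whole numbers) and TPM in 1 column per sample, with 0 unmapped columns; another deposited table, of scores, was not used. The build GRCm38 and the tools featureCounts 1.5.1, RSEM 1.3.0, STAR 2.5.2b, DESeq2 1.34.0 and FastQC 0.11.5 are named, per the submitters' processing notes. Annotation release and strand setting are not given in the sources used here. Symbols were matched for 48348 of 48794 genes, and coordinates come from GENCODE on GRCm38.

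The test on counts was edgeR's quasi-likelihood F test (version 4.0.16 in R 4.3.3, with a robust fit, TMM and filterByExpr by group) over all genes, with Benjamini-Hochberg adjustment and a threshold of 0.05. Bulk liver was compared with the average of the 4 sorted groups in a fit of 14 libraries, and cell numbers in fits of the 12 sorted libraries. Alternatives were library totals, relative log expression factors, no low-count filter, DESeq2 1.42.0, limma 3.58.1 on log2 TPM with pseudocounts of 1 and 0.1 (TPM of at least 1 in 2 libraries), a replicate block, all 14 libraries in the fit, the hepatocyte marker share as a covariate, and each library left out. Genes with no count in bulk were given a floor of 3 counts for the bulk pair (0.393 CPM), and ratios with 1 to 3 bulk counts have 95% counting intervals. The edgeR fits were tested on simulated data in which few genes changed, as many up as down. Such data cannot test the scaling between sorted cells and bulk liver, where most genes differ.

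Total counts per library were 6723357 to 14496314. The rule for naming took all 9 factors, the 2 or 3 members of each list with the highest sorted CPM, and the 2 nearest profiles per factor; further list members were named after their values were seen, and some items the rule takes are not reported here. The members and all 19 lists (183 entries, all matched, 9 of them lists of cell type markers) were chosen with earlier results of these data known.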

Additional observations from a re-analysis of the deposited data

How the results depend on the processing

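With library totals and on log2(TPM + 1) and log2(TPM + 0.1) in limma 0 of the 9 factors were lower in sorted cells than in bulk liver, and 2 were with relative log expression factors, against 1 with TMM. Bcl6 was then at 0.32, 0.77 and 0.82 on the log2 scale and Zbtb16 at 0.82, 0.74 and 1.26. Of all genes, 22.4% were lower with library totals, 15.7% and 15.5% in limma, 40.4% with relative log expression factors and 38.5% with TMM. The cause was not tested beyond the scaling itself. Leaving out 1 library kept 6 to 7 factors higher and 1 lower. The numbers of factors called by cell number moved from 0 to 1 without the low-count filter (any difference, 2500 and 5000 cells) or to 2 (10000 cells), and to 1 with DESeq2 (any difference, 10000 cells). They ran from 0 to 1 when a library was left out, the 1 being Bcl6 without replicate 1 of 20000 cells, and stayed at 0 for the slope. The order of the levels kept 5 of 9 ranks with CPM per kilobase.

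The counts of all genes called by cell number were unstable. For any difference there were 44, and 605 without the filter, 292 with DESeq2, 7 and 7 with limma at the pseudocounts of 1 and 0.1, 76 with all 14 libraries and 16 with the hepatocyte covariate (20 to 104 on leaving out a library). For the slope there were 12, and 19, 131, 0 and 0 in the same settings and 5 with the covariate (0 to 10). For 2500 cells there were 62, and 397, 257, 5 and 5, and 6 with the covariate (19 to 67). For 5000 cells there were 13, and 203, 85, 2 and 2, 22 with all 14 libraries and 4 with the covariate (6 to 29). For 10000 cells there were 45, and 21 with library totals, 286, 192, 4 and 7, and 5 with the covariate (7 to 114).

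Differences near 0 changed sign. The Tbx21 slope was -0.0051 and -0.0052 in limma and -0.0123 to 0.0138 on leaving out a library, the Gata3 slope 0.018 and 0.019 in limma, and Runx3 at 2500 cells -0.019 and -0.019 in limma. On leaving out a library the slopes ran from -0.0544 to 0.0213 for Eomes, -0.00588 to 0.0602 for Foxp3 and -0.00458 to 0.00788 for Runx3, and the differences of 2500 cells from -0.0174 to 0.0824 for Tbx21, -0.195 to 0.0574 for Foxp3 and -0.0154 to 0.240 for Zbtb16. None of these passed the test.

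Equal replicate numbers did not pair the libraries. The 18 correlations of same-numbered libraries ran from -0.105 to 0.0789 with 0 over 0.1, and 2 of 12 libraries correlated best with their own number. With the replicate block 12951 genes passed against bulk liver (13079 without), 55 for any difference, 68, 11 and 52 in the 3 contrasts and 0 for the slope, the Tbx21 slope was -0.00062, and no factor changed its call. At 49 to 154 counts per sorted library Zbtb16 is limited by depth, and so is every bulk value of 5 counts or fewer.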

Other observations

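Genes of the type 17 lineage were also compared between sorted cells and bulk liver. Of 8 listed genes 6 could be tested, 1 was higher and 4 were lower (edgeR quasi-likelihood F test; median log2 difference -1.70 beside 0.17 over all genes). Ccr6, a chemokine receptor that B cells also carry, was higher at 52.5 ± 3.31 CPM (SD, n = 12) against 0.128 CPM. Rora stood at 24.5 ± 3.33 CPM after the sort and at 198 CPM in bulk liver, and the interleukin 1 receptor Il1r1 at 2.27 ± 1.28 and 41.3 CPM. Both were also lower with library totals and on log2(TPM + 1) in limma, while Ahr, lower with TMM (40.9 ± 6.41 against 52.9 CPM), was not lower under those scalings. Il17a had no count in any library, and Il17f had 7 counts over the sorted libraries.

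The 2 genes nearest to Bcl6 over the sorted libraries shared its split at 20000 cells. Csrnp1 had 30.96, 48.2 and 48.9 CPM there and 20.5, 24.1 and 21.2 CPM at 10000 cells. Ykt6 had 27.8, 49.8 and 50.1 CPM at 20000 cells and 21.1, 25.2 and 27.3 CPM at 10000 cells. As for Bcl6, replicate 1 of 20000 cells was the low library of the 3. Both genes were picked for this likeness.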
